A study of Schizosaccharomyces pombe with 9 samples.

Results

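The genes described here encode the respiratory chain and the mitochondrial ATP synthase of the fission yeast Schizosaccharomyces pombe. They were taken by a rule on names, as the nuclear genes whose standard name is atp, cox, qcr, sdh or nde followed by digits. This rule gave 50 of the 6988 annotated features of the count table, of which 32 encode subunits and 18 encode assembly factors. The 32 subunit genes comprise the NADH dehydrogenase gene nde1, 3 genes of complex II, 7 of complex III, 8 of complex IV and 13 of the ATP synthase. Of the 18 assembly factor genes, 3 serve complex II, 10 are counted with complex IV and 5 serve the ATP synthase. The 10 include cox24, which was kept there by its name and is annotated as the mitochondrial ribosomal protein mS38. Each of 3 strains gave 3 biological replicates of polyadenylated RNA from log-phase cultures in YES, a rich medium, at 30 °C. The strains were one labelled as an rsm1 deletion with a natMX marker (strain ASY240, whose libraries are called the rsm1-labelled libraries here), one labelled nup211-1435* asp1-WT::kanMX (strain IAP105, called nup211-1435 here), and the wild type Sp1 (WT). All 9 libraries are labelled h-, each group is a single strain, and neither mutation can be told apart from its drug-resistance marker or from the other differences between the strains. Rsm1 and Nup211 belong to the nuclear basket of the nuclear pore.

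In respiration, electrons from NADH and succinate enter the ubiquinone pool of the inner mitochondrial membrane, pass through complex III and cytochrome c to complex IV, and reduce oxygen. Complexes III and IV pump protons, and the ATP synthase uses their return to make ATP. Fission yeast has no proton-pumping complex I and oxidises NADH with single-protein dehydrogenases such as Nde1. Complex II, succinate dehydrogenase, is also an enzyme of the tricarboxylic acid (TCA) cycle. The catalytic core of complex IV, cytochrome b of complex III and several membrane subunits of the ATP synthase are encoded by mitochondrial DNA, so nuclear and mitochondrial products are built together with the help of assembly factors. In yeasts many of the nuclear genes are under the control of the CCAAT-binding complex, and in fission yeast its Php4 subunit acts as a repressor when iron is scarce.

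Libraries held 20.98 to 28.11 M counts, and the 50 genes took 0.875 to 1.10% of them. Each gene had between 111 and 56484 counts in every library, and all 50 passed the filter on low counts that left 6227 features. Levels are given as CPM, which are counts relative to a common library total after scaling by the trimmed mean of M values, and 3 counts correspond to 0.106 to 0.139 CPM, a floor that covers counting error only. The 36 rows of the mitochondrial genome had no counts in any library, so the mitochondrially encoded subunits are not described. The gene rsm1 itself was counted in every library, at 31.8 ± 1.25 CPM in the rsm1-labelled libraries, 44.1 ± 0.932 CPM in nup211-1435 and 36.7 ± 0.398 CPM in WT (SD, n = 3 each), and these counts do not settle the label. Features on the opposite strand overlap 97.5% of the annotated rsm1 exon, and its coding part makes up 891 of 2575 nt. Of 3 genes used by h+ cells, map3 and map4 were higher in the rsm1-labelled libraries than in WT (log2 fold change 0.42 and 0.89), map2 was not called, and none was at 0 in any library. Their summed level was 60.9 to 69.2 CPM in the rsm1-labelled libraries, 40.7 to 41.1 CPM in nup211-1435 and 40.4 to 43.6 CPM in WT, and its part in the results below was not tested. In these bulk samples, fewer cells with a transcript and less of it per cell cannot be told apart.

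All 32 subunit genes fell in the rsm1-labelled libraries relative to WT, and none rose. Across all features of that comparison 70.7% were called at an adjusted p under 0.05, and 34.1% were called lower. Among features with at least 100 CPM on average 44.4% were called lower. The median log2 fold change of the 32 genes was -0.44, against 0.01 over all features tested, and the values lay between -0.79 and -0.14. The changes were moderate, with 5 genes changed at least 1.5-fold and none 2-fold. For each of the 32 genes all 3 rsm1-labelled libraries lay below all 3 WT libraries, a pattern that 35.5% of all features showed. Of the 18 assembly factors 8 fell, 1 rose (atp11) and 9 were not called (median -0.13).

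In nup211-1435 relative to WT, 15 of the 32 subunit genes fell, 1 rose (cox8) and 16 were not called. Of all features 64.9% were called in this comparison, 32% lower and 32.9% higher, and 41.9% were called lower among those with at least 100 CPM. The median log2 fold change of the subunits was -0.12, against 0.01 over all features. All 3 subunits of complex II fell, with a median of -0.44, whereas the 29 other subunits had a median of -0.10. Of these 29 genes 12 fell and 1 rose, and the number of falls was near the share called lower among features with at least 100 CPM. Every nup211-1435 library was below every WT library for 17 of the 32 genes, against 33.5% of all features, and none had every library above, against 34.4% of all features. Of the 18 assembly factors 6 fell, 1 rose (cox19) and 11 were not called (median -0.05). This number of falls was near the share over all features and is no result about the group.

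The direct contrast of nup211-1435 with the rsm1-labelled libraries divided the complexes. All 29 subunits outside complex II were higher in nup211-1435, and the 3 subunits of complex II were lower. Called features made up 50.2% of the total in this contrast, with 24.5% higher and 25.7% lower, and 31.6% were higher among those with at least 100 CPM. Median log2 fold changes were 0.39 for complex III, 0.43 for complex IV, 0.34 for the ATP synthase and -0.30 for complex II, against -0.002 over all features. For all 32 genes the 2 groups of 3 libraries did not overlap, with 29 wholly above and 3 wholly below, against 29.1% above and 29.9% below over all features. Among the assembly factors 5 were higher in nup211-1435 and 1 was lower.

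**Figure D1:**
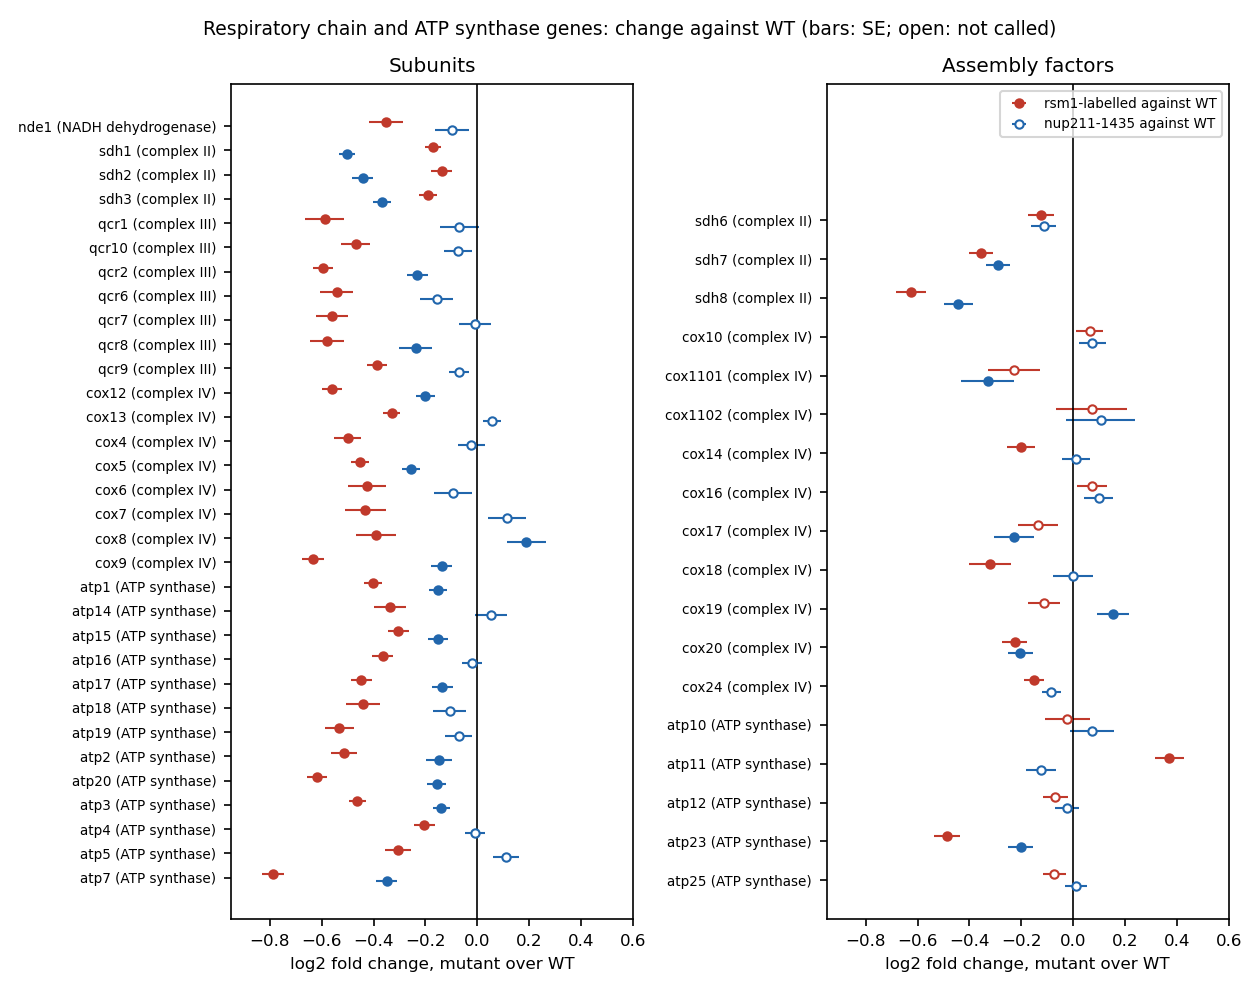
Log2 fold changes against WT (x axis) of the 32 subunit genes (left) and the 18 assembly factor genes (right), in red for the rsm1-labelled libraries and in blue for nup211-1435; bars are SE and open points were not called. All red subunit points lie left of 0, between -0.79 and -0.14, and among the blue subunit points the 3 of complex II lie farthest left, between -0.50 and -0.37.

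These counts depend on how the libraries are scaled. With scaling by total counts the median of all features moved by 0.14 in the rsm1-labelled libraries and by 0.13 in nup211-1435, both relative to WT, and by -0.01 between the mutants. The subunits that fell then numbered 28 of 32 in the rsm1-labelled libraries, where sdh1, sdh2, sdh3 and atp4 were no longer called lower. In nup211-1435 relative to WT, 7 subunits rose and 6 fell with this scaling, the 3 complex II genes among the 6. The median log2 fold change of the 32 subunits was then 0.01, against 0.14 over all features. The shares of all features called with this scaling are not given, so the 7 rises and 6 falls are no result about the genes. The contrast between the mutants stayed at 29 higher and 3 lower.

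Before the changes, the levels themselves were compared per kilobase of annotated exon in WT. On this scale all 32 subunit genes lay above every assembly factor. The highest was atp2, the catalytic beta subunit of the ATP synthase, at 1123 CPM per kb, and the lowest was atp19, a small membrane subunit of the same enzyme, at 141 CPM per kb, so that the levels of ATP synthase genes spanned 7.96-fold. Complex II ranged from sdh3 at 322 to sdh1 at 573 CPM per kb, complex III from qcr2 at 148 to qcr1 at 427, and complex IV from cox7 at 154 to cox5 at 346. The gene nde1 stood at 266 CPM per kb. Assembly factors had a median of 30.7 CPM per kb, against 231 CPM per kb for the subunits. The annotated exon of atp1, the alpha subunit, is 4795 nt long for a coding part of 1611 nt, and atp1 stood at 203 CPM per kb of exon but 604 CPM per kb of coding sequence. Per kilobase of coding sequence the order changes. The assembly factor genes cox14 (225 CPM per kb) and cox24 (185 CPM per kb) then lie above the subunit gene qcr2 (183 CPM per kb), and cox14 also above cox7 (213 CPM per kb). The highest complex III gene is then qcr8 (898 CPM per kb), above qcr1 (640 CPM per kb). The lowest ATP synthase subunit gene is then atp7 (243 CPM per kb), while atp2 stays the highest of all 50 genes (1348 CPM per kb).

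**Figure D2:**
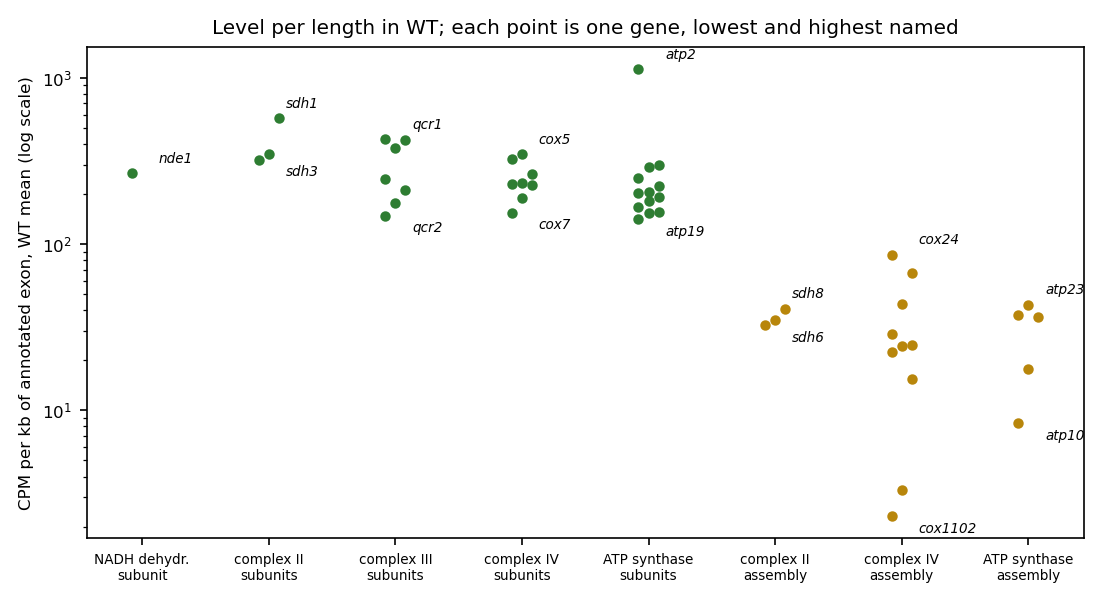
Mean level in WT per kilobase of annotated exon (y axis, log scale) of each of the 50 genes, grouped by complex, with subunits in green and assembly factors in brown. The subunits lie between 141 and 1123 CPM per kb and the assembly factors between 2.32 and 86.0 CPM per kb, the latter for cox24.

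Summed over the genes of each complex, the CPM showed the same division. Relative to the WT mean, complex III stood at 63.2, 66.4 and 73.6% in the rsm1-labelled libraries and at 90.8, 93.7 and 93.2% in nup211-1435. Complex IV stood at 69.7, 71.7 and 77.4% in the rsm1-labelled libraries and at 93.1, 95.7 and 92.7% in nup211-1435. The ATP synthase stood at 69.6, 71.6 and 78.4% in the rsm1-labelled libraries and at 89.9, 92.7 and 93.3% in nup211-1435. Complex II ran the other way, at 88.8, 86.5 and 92.3% in the rsm1-labelled libraries and at 73.2, 70.9 and 73.0% in nup211-1435. The assembly factors together stayed between 91.4 and 96.2% in the 6 mutant libraries. The ratio of the complex II sum to the complex III sum, which no scaling of libraries can alter, was 1.26, 1.17 and 1.13 in the rsm1-labelled libraries, 0.726, 0.680 and 0.704 in nup211-1435 and 0.894, 0.936 and 0.869 in WT. The 3 strains did not overlap in this ratio, with WT between the mutants.

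**Figure D3:**
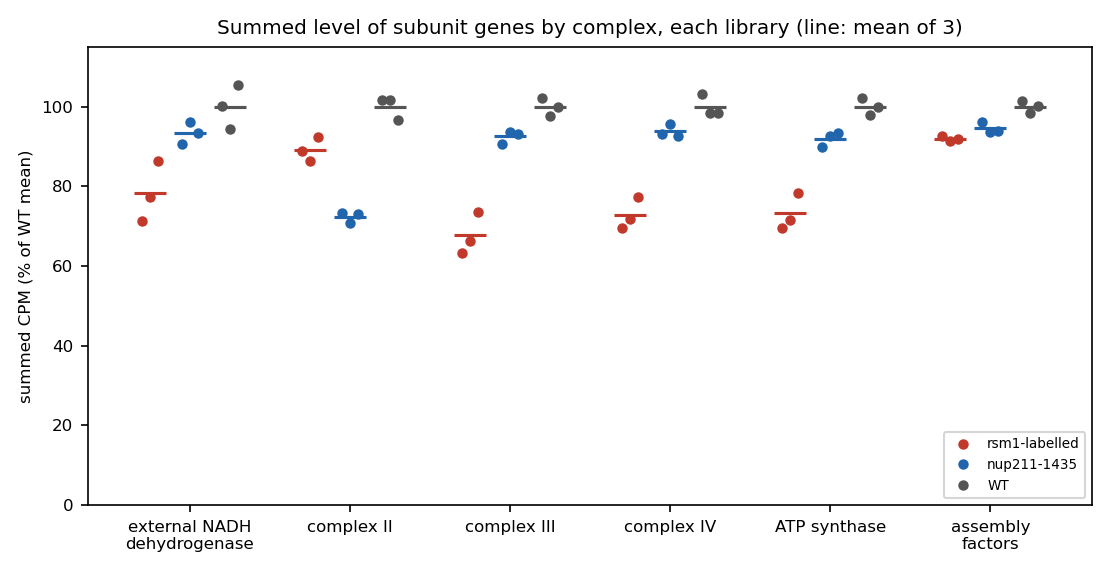
Summed CPM of the subunit genes of each complex and of the assembly factors, as a percentage of the WT mean (y axis), for each library; points are libraries, lines are means of 3, and groups run from the rsm1-labelled libraries through nup211-1435 to WT. Complex II is lowest in nup211-1435, at 70.9 to 73.2%, and complexes III and IV and the ATP synthase are lowest in the rsm1-labelled libraries, at 63.2 to 78.4%.

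Replicate 3 of the rsm1-labelled libraries, which had the smallest total, was nearest to WT, and it held the highest of the 3 levels for 28 of the 32 subunits. Without it all 32 subunits still fell relative to WT, and their median log2 fold change was -0.48. The part of its depth in this difference was not tested. The median coefficient of variation of the subunits was 5.27% in the rsm1-labelled libraries, 2.95% in nup211-1435 and 3.21% in WT.

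The entry points of electrons are Nde1 and complex II. The gene nde1, which encodes an NADH dehydrogenase that reduces ubiquinone, had 474, 513 and 574 CPM in the libraries labelled rsm1 deletion, 602, 639 and 621 CPM in nup211-1435 and 666, 627 and 701 CPM in WT. Its level fell in the rsm1-labelled libraries relative to WT, without overlap (log2 fold change -0.35, SE 0.07, adjusted p = 0.00067). The nup211-1435 libraries overlapped the WT libraries, with a log2 fold change of -0.10 and an interval of ±1.96 SE, not adjusted for the number of tests, of -0.23 to 0.03.

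The flavoprotein subunit gene of succinate dehydrogenase, sdh1, had 1042, 1021 and 1089 CPM in the libraries labelled rsm1 deletion, 843, 822 and 838 CPM in nup211-1435 and 1203, 1194 and 1149 CPM in WT. It fell by 29.4% in nup211-1435 relative to WT (log2 fold change -0.50, SE 0.03, adjusted p = 2.11e-09), the largest fall of a subunit in that comparison, and less in the rsm1-labelled libraries (log2 fold change -0.17, SE 0.03, adjusted p = 0.000161). The iron-sulfur subunit gene sdh2 had 423, 404 and 429 CPM in the libraries labelled rsm1 deletion, 340.5, 325 and 352 CPM in nup211-1435 and 468, 479 and 434 CPM in WT. Its nup211-1435 libraries were the lowest of the 3 groups without overlap (log2 fold change -0.44, SE 0.04, adjusted p = 1.97e-07), while the fall in the rsm1-labelled libraries was smaller (log2 fold change -0.14, SE 0.04, adjusted p = 0.00738). The cytochrome b anchor gene sdh3 had 259, 252 and 273 CPM in the libraries labelled rsm1 deletion, 237, 229 and 227 CPM in nup211-1435 and 303, 299.7 and 291 CPM in WT. It fell in nup211-1435 (log2 fold change -0.37, SE 0.03, adjusted p = 2.18e-07) and in the rsm1-labelled libraries (log2 fold change -0.19, SE 0.03, adjusted p = 0.00016), both relative to WT.

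Between the mutants, nup211-1435 was below the rsm1-labelled libraries for sdh1 (log2 fold change -0.33, SE 0.03, adjusted p = 6.64e-07), sdh2 (log2 fold change -0.30, SE 0.04, adjusted p = 2.44e-05) and sdh3 (log2 fold change -0.18, SE 0.03, adjusted p = 0.000581). The second membrane anchor, listed as sdh4 only as a synonym of tim18 and so outside the naming rule, had log2 fold changes of -0.17 in the rsm1-labelled libraries and -0.36 in nup211-1435 relative to WT, and -0.19 between the mutants, and was called lower in each. The 3 complex II genes thus fell in both mutants relative to WT, and fell further in nup211-1435. With scaling by total counts the falls in nup211-1435 stayed called, whereas sdh2 in the rsm1-labelled libraries stood at 0.0055 and none of the 3 genes was called there.

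Complex III passes electrons on to cytochrome c. Its core subunit gene qcr1, whose product is annotated as the beta subunit of the mitochondrial processing peptidase, had 530.1, 567 and 657 CPM in the libraries labelled rsm1 deletion, 783, 852 and 880.0 CPM in nup211-1435 and 914, 843 and 882 CPM in WT. The rsm1-labelled libraries lay below both other groups (log2 fold change -0.59, SE 0.08, adjusted p = 7.37e-05 relative to WT), whereas the nup211-1435 and WT libraries overlapped (log2 fold change -0.07, interval -0.22 to 0.08). The other core subunit gene, qcr2, had 149, 149.8 and 167 CPM in the libraries labelled rsm1 deletion, 198, 202 and 199.8 CPM in nup211-1435 and 236, 232 and 235 CPM in WT. It was the complex III gene with the largest fall in the rsm1-labelled libraries (log2 fold change -0.60, SE 0.04, adjusted p = 3.89e-09) and one of 2 that fell in nup211-1435 relative to WT (log2 fold change -0.23, SE 0.04, adjusted p = 0.000105). The small subunit gene qcr7 had 162, 170.4 and 197 CPM in the libraries labelled rsm1 deletion, 245, 263 and 268 CPM in nup211-1435 and 266, 254 and 261 CPM in WT. Its level fell in the rsm1-labelled libraries (log2 fold change -0.56, SE 0.06, adjusted p = 8.77e-06) and differed little between nup211-1435 and WT (log2 fold change -0.01, interval -0.13 to 0.11).

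The remaining subunit genes of complex III fell in the rsm1-labelled libraries relative to WT, at -0.58 (qcr8), -0.54 (qcr6), -0.47 (qcr10) and -0.39 (qcr9) as log2 fold changes. Of these qcr8 also fell in nup211-1435 (log2 fold change -0.24, SE 0.06, adjusted p = 0.00715), while qcr6, qcr9 and qcr10 had values of -0.16, -0.07 and -0.08 and were not called. All 7 genes were higher in nup211-1435 than in the rsm1-labelled libraries, most of all qcr7 (log2 fold change 0.55, SE 0.06, adjusted p = 2.9e-05) and qcr1 (log2 fold change 0.52, SE 0.08, adjusted p = 0.000388). The naming rule leaves out the catalytic subunits cyt1 and rip1. Relative to WT, the cytochrome c1 gene cyt1 had log2 fold changes of -0.48 in the rsm1-labelled libraries and -0.14 in nup211-1435. The Rieske protein gene rip1 had -0.41 in the rsm1-labelled libraries and -0.04 in nup211-1435, where it was not called. Cytochrome c itself, cyc1, had 499, 521 and 566 CPM in the libraries labelled rsm1 deletion, 628, 611 and 623 CPM in nup211-1435 and 798, 767 and 783 CPM in WT, and it fell in both mutants relative to WT (-0.57 in the rsm1-labelled libraries and -0.33 in nup211-1435).

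Complex IV transfers electrons to oxygen, and its nuclear subunits surround the mitochondrially encoded core. The gene cox9, annotated as subunit VIIa, had 57.4, 58.4 and 63.2 CPM in the libraries labelled rsm1 deletion, 83.5, 86.2 and 82.3 CPM in nup211-1435 and 94.7, 91.5 and 91.1 CPM in WT. It fell most among the complex IV genes in the rsm1-labelled libraries, to 59.7 ± 3.11 CPM, against 92.4 ± 1.94 CPM in WT (log2 fold change -0.63, SE 0.04, adjusted p = 2.68e-09). In nup211-1435 it fell less, without overlap with WT (log2 fold change -0.14, SE 0.04, adjusted p = 0.00687). The gene cox5, subunit V and the highest of the complex per kilobase, had 222, 234 and 242 CPM in the libraries labelled rsm1 deletion, 258, 272 and 269 CPM in nup211-1435 and 322, 316 and 316 CPM in WT. Its level fell in the rsm1-labelled libraries (log2 fold change -0.45, SE 0.03, adjusted p = 1.74e-08) and had the largest fall of the complex IV genes in nup211-1435 (log2 fold change -0.26, SE 0.03, adjusted p = 1.09e-05).

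The gene cox8, subunit VIII, had 42.2, 43.2 and 47.4 CPM in the libraries labelled rsm1 deletion, 66.5, 68.0 and 63.6 CPM in nup211-1435 and 65.5, 56.7 and 51.7 CPM in WT. It fell in the rsm1-labelled libraries (log2 fold change -0.39, SE 0.08, adjusted p = 0.000743) and was the only subunit called higher in nup211-1435 relative to WT (log2 fold change 0.19, SE 0.07, adjusted p = 0.0423). The nup211-1435 and WT libraries of cox8 overlapped, and the call was lost without replicate 1, 2 or 3 of nup211-1435, replicate 2 or 3 of WT, or replicate 2 of the rsm1-labelled libraries. The call was also lost with a replicate block (log2 fold change 0.19, adjusted p = 0.0518) and in a fit of the 2 groups alone (log2 fold change 0.19, adjusted p = 0.0541), where atp5 was called higher instead (log2 fold change 0.11, adjusted p = 0.048). In the 6 fits without a library the value lay between 0.11 and 0.22, and without replicate 1 of WT, where the call held, it was 0.28. The gene cox7, subunit VII and the lowest subunit gene of the complex per kilobase, had 27.5, 29.3 and 28.3 CPM in the libraries labelled rsm1 deletion, 46.6, 39.8 and 38.1 CPM in nup211-1435 and 40.4, 39.6 and 34.9 CPM in WT. It fell in the rsm1-labelled libraries (log2 fold change -0.43, SE 0.08, adjusted p = 0.000233) and was not called in nup211-1435 (log2 fold change 0.11, interval -0.03 to 0.26).

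The other complex IV subunit genes fell in the rsm1-labelled libraries, at -0.56 (cox12), -0.50 (cox4), -0.43 (cox6) and -0.33 (cox13) as log2 fold changes. In nup211-1435 relative to WT, cox12 fell (log2 fold change -0.20, SE 0.04, adjusted p = 0.000281), and cox4, cox6 and cox13 were not called, at -0.02, -0.09 and 0.06. All 8 genes were higher in nup211-1435 than in the rsm1-labelled libraries, with cox8 (log2 fold change 0.58, SE 0.08, adjusted p = 7.11e-05), cox7 (log2 fold change 0.55, SE 0.08, adjusted p = 6.63e-05) and cox9 (log2 fold change 0.50, SE 0.04, adjusted p = 2.15e-07) in the lead. The smallest difference of the complex was that of cox5 (0.20).

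**Figure D4:**
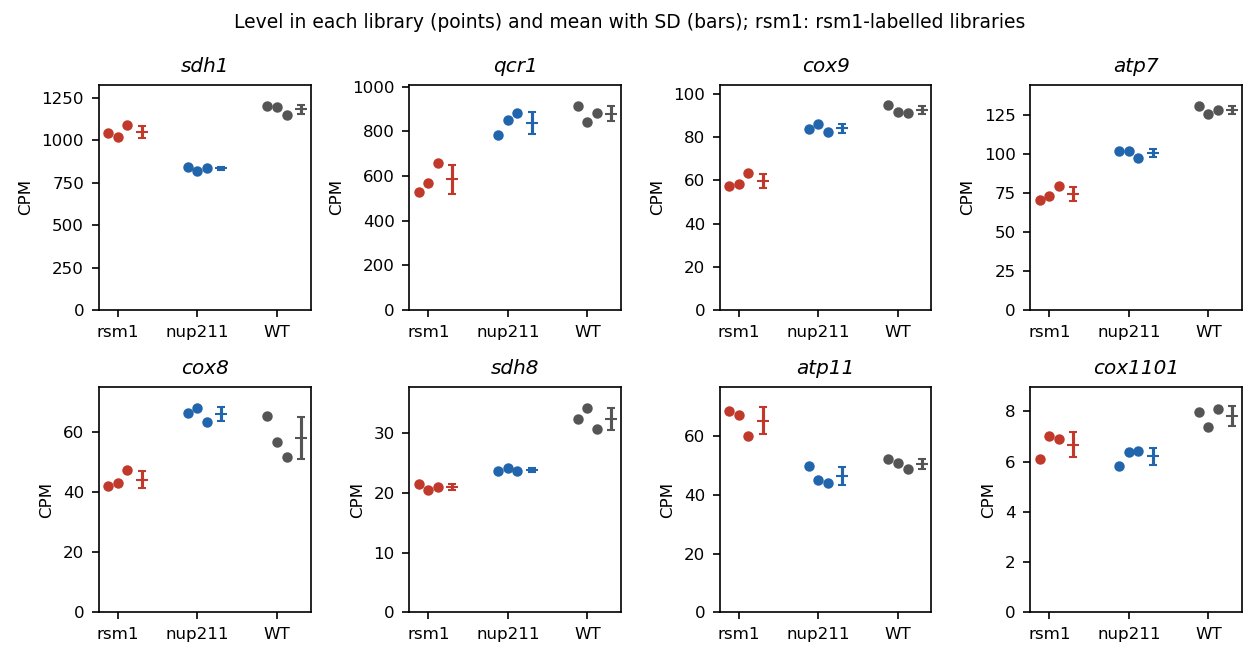
CPM (y axis from 0) of 8 of the genes in each library, with the rsm1-labelled libraries (rsm1) at the left, nup211-1435 in the middle and WT at the right; points are libraries and bars are mean and SD. The panels show sdh1 lowest in nup211-1435, qcr1, cox9 and atp7 lowest in the rsm1-labelled libraries, sdh8 low in both mutants, and atp11 highest in the rsm1-labelled libraries.

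The ATP synthase consists of a catalytic head, a rotor, a peripheral stalk and a membrane part. In the head, the beta subunit gene atp2 had 1392, 1453 and 1629 CPM in the libraries labelled rsm1 deletion, 1849, 1931 and 1982 CPM in nup211-1435 and 2149.6, 2081 and 2152 CPM in WT. Levels fell in the rsm1-labelled libraries (log2 fold change -0.51, SE 0.05, adjusted p = 1.46e-06) and less in nup211-1435 (log2 fold change -0.15, SE 0.05, adjusted p = 0.0201), without overlap with WT in either. The call in nup211-1435 was lost without its replicate 1 (-0.12) and without replicate 1 or 3 of WT (-0.14 in each). The alpha subunit gene atp1 fell in both mutants, with log2 fold changes of -0.40 in the rsm1-labelled libraries and -0.15 in nup211-1435. Of the genes for the central stalk, atp3 (gamma), atp16 (delta) and atp15 (epsilon) fell in the rsm1-labelled libraries, with log2 fold changes of -0.46, -0.36 and -0.30. In nup211-1435 atp3 and atp15 fell (-0.14 and -0.15), while atp16 was not called (log2 fold change -0.02, interval -0.10 to 0.06).

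The peripheral stalk held both the largest and the smallest fall of an ATP synthase subunit gene in the rsm1-labelled libraries. The gene atp7, subunit d, had 70.6, 73.0 and 79.6 CPM in the libraries labelled rsm1 deletion, 102, 102 and 97.7 CPM in nup211-1435 and 131, 126 and 128 CPM in WT. It fell by 42.1% in the rsm1-labelled libraries relative to WT (log2 fold change -0.79, SE 0.04, adjusted p = 4.4e-10), the largest change among the 50 genes, and by 21.5% in nup211-1435 (log2 fold change -0.35, SE 0.04, adjusted p = 2.79e-06), so that the 3 groups did not overlap. The stalk gene atp4 had log2 fold changes of -0.20 in the rsm1-labelled libraries and -0.01 in nup211-1435 (interval -0.09 to 0.07), and was called only in the rsm1-labelled libraries. The stalk genes atp5 and atp14 fell in the rsm1-labelled libraries, at -0.31 and -0.34. In nup211-1435 neither was called, at 0.11 for atp5 and 0.05 for atp14.

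Of the small membrane subunit genes, atp20, subunit g, had 93.9, 92.1 and 102 CPM in the libraries labelled rsm1 deletion, 133, 131 and 131 CPM in nup211-1435 and 149, 144 and 149 CPM in WT. It fell in the rsm1-labelled libraries (log2 fold change -0.62, SE 0.04, adjusted p = 1.66e-09) and less in nup211-1435 (log2 fold change -0.16, SE 0.04, adjusted p = 0.00185). The gene atp19, subunit k, had 39.9, 38.8 and 39.1 CPM in the libraries labelled rsm1 deletion, 56.1, 53.7 and 52.4 CPM in nup211-1435 and 61.4, 56.8 and 52.3 CPM in WT. Its fall was called in the rsm1-labelled libraries (log2 fold change -0.53, SE 0.05, adjusted p = 4.9e-07), whereas the nup211-1435 and WT libraries overlapped (log2 fold change -0.07, interval -0.18 to 0.03). The genes atp17 and atp18 (subunits f and j) fell in the rsm1-labelled libraries, at -0.45 and -0.44, and in nup211-1435 atp17 fell (-0.14) and atp18 was not called (-0.11). All 13 ATP synthase subunit genes were higher in nup211-1435 than in the rsm1-labelled libraries, by between 0.15 (atp15) and 0.46 (atp20) on the log2 scale.

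All 3 assembly factors of complex II fell in the rsm1-labelled libraries relative to WT, and 2 of them fell in nup211-1435. Over all features 34.1% were called lower in the rsm1-labelled libraries and 32% in nup211-1435. The gene sdh8, whose budding yeast relative acts on the flavoprotein subunit, had 21.5, 20.6 and 21.0 CPM in the libraries labelled rsm1 deletion, 23.7, 24.2 and 23.6 CPM in nup211-1435 and 32.4, 34.3 and 30.6 CPM in WT. Both mutants lay below WT without overlap, with a fall in the rsm1-labelled libraries (log2 fold change -0.63, SE 0.06, adjusted p = 1.22e-07) and in nup211-1435 (log2 fold change -0.44, SE 0.06, adjusted p = 5.24e-06), and sdh8 was called higher in nup211-1435 than in the rsm1-labelled libraries (log2 fold change 0.18, SE 0.06, adjusted p = 0.0179). The call between the mutants was lost without replicate 2 of nup211-1435 or of the rsm1-labelled libraries (0.17 in each). The gene sdh7, of the ACN9 family, had 40.2, 39.6 and 41.0 CPM in the libraries labelled rsm1 deletion, 42.6, 42.6 and 41.1 CPM in nup211-1435 and 48.7, 51.5 and 54.1 CPM in WT. Both mutants lay below WT, with falls in the rsm1-labelled libraries (log2 fold change -0.36, SE 0.05, adjusted p = 6.8e-06) and in nup211-1435 (log2 fold change -0.29, SE 0.05, adjusted p = 5.69e-05) relative to WT. The gene sdh6, annotated as an assembly factor of the enzyme, fell in the rsm1-labelled libraries (log2 fold change -0.12, SE 0.05, adjusted p = 0.0341) and was not called in nup211-1435 (-0.11). The fall of sdh6 was not called by DESeq2 or without any 1 library of the rsm1-labelled libraries or of WT, at values between -0.13 and -0.12. Unlike sdh1, sdh2 and sdh3, none of these 3 genes was called lower in nup211-1435 than in the rsm1-labelled libraries.

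Of the 10 genes counted as assembly factors of complex IV, 4 fell in the rsm1-labelled libraries relative to WT and none rose. Those that fell were cox18, cox20, cox14 and cox24. In nup211-1435 cox1101, cox17 and cox20 fell and cox19 rose. Over all features 34.1% were called lower and 36.7% higher in the rsm1-labelled libraries, and 32% lower and 32.9% higher in nup211-1435. The numbers of falls were near these shares and are no result about the group. The gene cox18, which acts in the export of a domain of Cox2 in budding yeast, had 14.2, 14.8 and 16.1 CPM in the libraries labelled rsm1 deletion, 19.3, 18.8 and 18.2 CPM in nup211-1435 and 20.3, 19.0 and 16.9 CPM in WT. It fell in the rsm1-labelled libraries (log2 fold change -0.32, SE 0.08, adjusted p = 0.00216) and was not called in nup211-1435 (interval -0.15 to 0.15), and it was higher in nup211-1435 than in the rsm1-labelled libraries (log2 fold change 0.32, SE 0.08, adjusted p = 0.00379). The gene cox20, a chaperone of Cox2 in budding yeast, had 38.0, 36.7 and 38.1 CPM in the libraries labelled rsm1 deletion, 38.2, 38.5 and 37.8 CPM in nup211-1435 and 41.6, 46.5 and 43.8 CPM in WT. Both mutants fell relative to WT without overlap (log2 fold change -0.23, SE 0.05, adjusted p = 0.000683 in the rsm1-labelled libraries and log2 fold change -0.20, SE 0.05, adjusted p = 0.00162 in nup211-1435).

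The gene cox14, which acts on new Cox1 in budding yeast, had 42.8, 39.4 and 41.2 CPM in the libraries labelled rsm1 deletion, 49.4, 44.8 and 48.7 CPM in nup211-1435 and 50.1, 44.5 and 47.3 CPM in WT. A fall was called in the rsm1-labelled libraries (log2 fold change -0.20, SE 0.06, adjusted p = 0.00445), and cox14 was higher in nup211-1435 than there (log2 fold change 0.21, SE 0.05, adjusted p = 0.00515). The gene cox24, annotated as the mitochondrial ribosomal protein mS38, fell in the rsm1-labelled libraries (-0.15). The copper chaperone gene cox17 had 24.1, 23.3 and 21.8 CPM in the libraries labelled rsm1 deletion, 23.2, 22.1 and 19.8 CPM in nup211-1435 and 27.3, 26.2 and 22.8 CPM in WT. It fell in nup211-1435 (log2 fold change -0.23, SE 0.08, adjusted p = 0.0176) although its libraries overlapped those of WT, a call lost without replicate 3 of nup211-1435 (-0.17) or replicate 1 of WT (-0.18), and was not called in the rsm1-labelled libraries (-0.14). Another copper chaperone gene, cox19, had 16.8, 17.2 and 16.2 CPM in the libraries labelled rsm1 deletion, 19.7, 19.7 and 21.0 CPM in nup211-1435 and 17.9, 18.0 and 18.4 CPM in WT. It rose in nup211-1435 relative to WT (log2 fold change 0.15, SE 0.06, adjusted p = 0.0373). DESeq2 did not make this call, which was also lost without replicate 2 or 3 of nup211-1435 or replicate 1, 2 or 3 of WT, at values between 0.12 and 0.17. It was higher in nup211-1435 than in the rsm1-labelled libraries (log2 fold change 0.27, SE 0.06, adjusted p = 0.00239). The genes cox10, a farnesyltransferase of heme synthesis, and cox16 were not called in any comparison.

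The paralogs cox1101 and cox1102 are both annotated as fusions of an Rsm22 part with a Cox11 part, have the same coding length of 2262 nt, and may share reads, so their separate values are uncertain. The gene cox1101 had 6.11, 7.00 and 6.91 CPM in the libraries labelled rsm1 deletion, 5.81, 6.38 and 6.43 CPM in nup211-1435 and 7.98, 7.37 and 8.08 CPM in WT. It fell in nup211-1435 relative to WT (log2 fold change -0.33, SE 0.10, adjusted p = 0.00995) and was not called in the rsm1-labelled libraries (-0.23, interval -0.43 to -0.03). The gene cox1102 had 5.62, 5.70 and 5.75 CPM in the libraries labelled rsm1 deletion, 6.64, 4.98 and 5.87 CPM in nup211-1435 and 5.87, 4.47 and 5.90 CPM in WT. The 3 groups of cox1102 overlapped, and it was not called in any comparison.

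Of the ATP synthase assembly factors, atp11, a chaperone of the catalytic head, was the only one of the 50 genes that rose in the rsm1-labelled libraries. It had 68.6, 67.1 and 60.2 CPM in the libraries labelled rsm1 deletion, 49.8, 45.2 and 44.1 CPM in nup211-1435 and 52.1, 50.9 and 48.7 CPM in WT. The rise (log2 fold change 0.37, SE 0.06, adjusted p = 2.95e-05) was without overlap with WT or nup211-1435, and atp11 was lower in nup211-1435 than in the rsm1-labelled libraries (log2 fold change -0.50, SE 0.06, adjusted p = 5.1e-06). The other chaperone gene of the head, atp12, was not called in any comparison (-0.07 in the rsm1-labelled libraries and -0.02 in nup211-1435). The gene atp23, annotated as a peptidase, had 32.7, 35.2 and 36.1 CPM in the libraries labelled rsm1 deletion, 41.0, 42.1 and 43.3 CPM in nup211-1435 and 46.6, 49.7 and 49.0 CPM in WT. It fell in the rsm1-labelled libraries (log2 fold change -0.49, SE 0.05, adjusted p = 4.43e-07) and in nup211-1435 (log2 fold change -0.20, SE 0.05, adjusted p = 0.00198), and was higher in nup211-1435 than in the rsm1-labelled libraries (log2 fold change 0.28, SE 0.05, adjusted p = 0.000271). The genes atp10 and atp25, annotated as assembly proteins, were not called in any comparison.

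More than 50% of the annotated exon was overlapped by a feature on the opposite strand for 26 of the 50 genes, and no source used here gives the strand setting of the authors' counting, so counts of such pairs may be mixed. The 5 subunit genes with no overlap by another feature (atp2, atp15, sdh2, cox9 and cox13) all fell in the rsm1-labelled libraries, with a median log2 fold change of -0.33. In nup211-1435 4 of these 5 fell, all but cox13. The 17 subunit genes overlapped over more than 50% of the exon also all fell in the rsm1-labelled libraries, with a median of -0.44. In nup211-1435 5 of these 17 fell, 1 rose and 11 were not called (median -0.08). Over all features 34.1% were called lower in the rsm1-labelled libraries and 32% in nup211-1435, so the 5 of 17 is near the background.

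Genes that work beside the respiratory chain were described from lists of known members. Of 14 genes of the TCA cycle and pyruvate dehydrogenase, all 14 fell in nup211-1435 relative to WT (median log2 fold change -0.44), and in the rsm1-labelled libraries 10 fell and 1 rose (median -0.15). Over all features 32% were called lower in nup211-1435 and 34.1% in the rsm1-labelled libraries, and 41.9% and 44.4% among those with at least 100 CPM. The rise was that of citrate synthase, cit1, with 547, 543 and 565 CPM in the libraries labelled rsm1 deletion, 296, 281 and 290.3 CPM in nup211-1435 and 477, 479 and 461 CPM in WT. The gene cit1 was thus highest in the rsm1-labelled libraries (log2 fold change 0.22, SE 0.03, adjusted p = 1.08e-05) and lowest in nup211-1435 (log2 fold change -0.71, SE 0.03, adjusted p = 6.09e-11). The largest fall of the list in nup211-1435 was that of lat1, of the pyruvate dehydrogenase complex (log2 fold change -0.75, SE 0.03, adjusted p = 1.73e-11), followed among genes of the same list by cit1, dld1 (-0.58) and idh1 (-0.52). Between the mutants 12 of the 14 were lower in nup211-1435 and none was higher, against 25.7% lower and 24.5% higher over all features, and sdh1, sdh2 and sdh3 had the same direction.

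Of 6 other electron transfer genes with counts, 4 fell in the rsm1-labelled libraries, against 34.1% of all features, and 5 fell in nup211-1435, against 32%. The mitochondrial glycerol-3-phosphate dehydrogenase gene gut2 and the sulfide-quinone oxidoreductase gene hmt2, which feed the ubiquinone pool as complex II does, fell in nup211-1435, with log2 fold changes of -0.54 and -0.50. In the rsm1-labelled libraries gut2 was not called (-0.02) and hmt2 fell (-0.29). Between the mutants, nup211-1435 was lower for gut2 (log2 fold change -0.52, SE 0.09, adjusted p = 0.000441) and hmt2 (log2 fold change -0.21, SE 0.03, adjusted p = 6.16e-05). Feeding the same pool, nde1 went the other way and was higher in nup211-1435 (log2 fold change 0.25, SE 0.06, adjusted p = 0.00866). The internal NADH dehydrogenase gene ndi1 fell in nup211-1435 (-0.17) and was not called in the rsm1-labelled libraries (-0.05).

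Ubiquinone synthesis was mixed. Of 12 genes, 8 fell and 2 rose in the rsm1-labelled libraries, and 7 fell and 3 rose in nup211-1435. The shares over all features were 34.1% lower and 36.7% higher in the rsm1-labelled libraries, and 32% lower and 32.9% higher in nup211-1435. The gene ppt1, a prenyltransferase of the pathway, fell most in both mutants relative to WT, with 46.8, 46.8 and 49.6 CPM in the libraries labelled rsm1 deletion, 57.0, 52.2 and 51.7 CPM in nup211-1435 and 87.0, 86.7 and 80.3 CPM in WT (-0.83 in the rsm1-labelled libraries and -0.66 in nup211-1435 on the log2 scale). Of 19 further assembly factors of complexes III and IV with enough counts, 12 fell and none rose in the rsm1-labelled libraries, led by cbp7 (-0.40), and 10 fell and 1 rose in nup211-1435, where oxa102 fell most (-0.33) and coa4 rose (0.27). The same shares over all features apply to these counts.

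Of 15 genes for the expression of the mitochondrial genome, 6 rose and 5 fell in the rsm1-labelled libraries, and 5 rose and 3 fell in nup211-1435. Against 36.7% higher and 34.1% lower over all features in the rsm1-labelled libraries, and 32.9% and 32% in nup211-1435, these counts were near the background or below it, and are no result about the list. The pentatricopeptide repeat genes ppr5 and ppr8 rose in the rsm1-labelled libraries by 0.99 and 0.81, and in nup211-1435 by 0.57 and 0.88, on the log2 scale. The translation elongation factor gene tuf1 fell in both (-0.48 in the rsm1-labelled libraries and -0.37 in nup211-1435). Among the CCAAT-binding complex genes, the repressor subunit gene php4 had 79.4, 80.8 and 81.1 CPM in the libraries labelled rsm1 deletion, 59.6, 64.7 and 69.2 CPM in nup211-1435 and 38.6, 36.0 and 41.3 CPM in WT. It rose in the rsm1-labelled libraries (log2 fold change 1.06, SE 0.06, adjusted p = 4.7e-10) and in nup211-1435 (log2 fold change 0.74, SE 0.06, adjusted p = 2.89e-08), and was lower in nup211-1435 than in the rsm1-labelled libraries (log2 fold change -0.32, SE 0.05, adjusted p = 0.000207). The DNA-binding subunit genes php2, php3 and php5 had smaller values, of 0.12, 0.11 and -0.14 in the rsm1-labelled libraries and -0.21, -0.03 and -0.16 in nup211-1435, and php3 was called in neither.

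**Figure D5:**
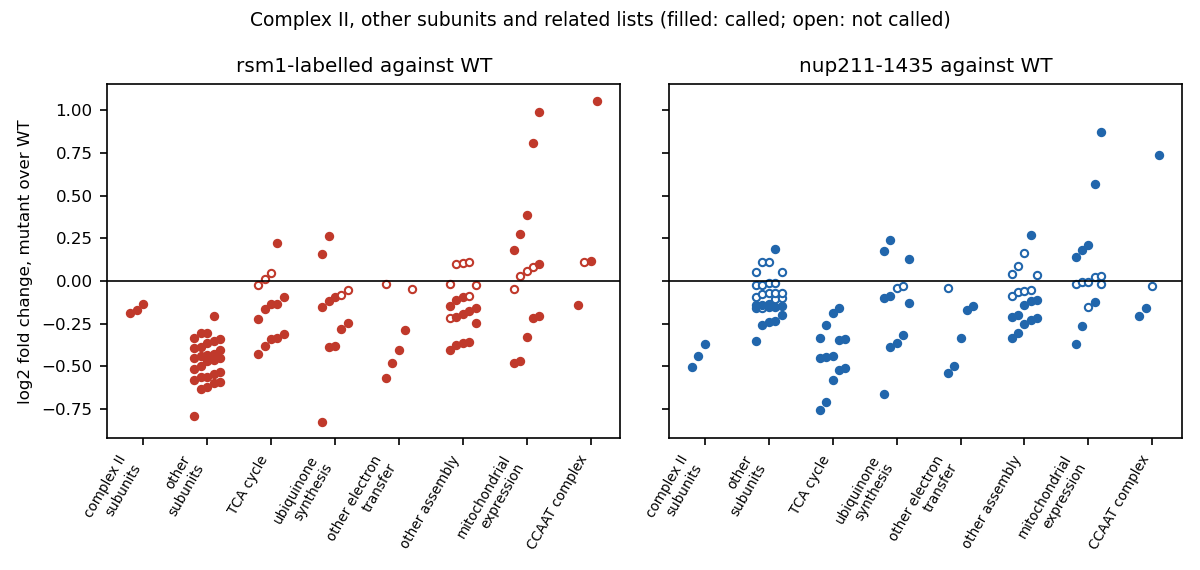
Log2 fold changes against WT (y axis) of the complex II subunits, the other subunits and the genes of 6 related lists, for the rsm1-labelled libraries (left) and nup211-1435 (right); each point is a gene and open points were not called. At the left the subunits outside complex II lie between -0.79 and -0.20 and complex II between -0.19 and -0.14, and at the right all 14 TCA cycle points lie below 0, between -0.75 and -0.16.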

How the data were processed

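The authors deposited raw read counts, not normalized, for 6988 features in 9 libraries. The submitters' processing notes name the build ASM294v2, HISAT2 2.1.0, HTSeq 0.10.0, SAMtools and DESeq2, while the annotation and the strand setting of counting are not given in the sources used. For each mutant against WT a further table deposited by the authors holds a normalized mean signal, log2 fold changes with SE, a test statistic (score), p-values and adjusted p-values, with DESeq2 column names per the file headers. These tables were only set beside the values computed here.

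Names came from RefSeq for ASM294v3 (6836 features matched by identifier, 12 by synonym, 140 not matched), used for names, exon lengths and overlaps only. Because that genome is of another build, no coordinates or sequences are given, and a planned count of CCAAT motifs before the genes was not made. Counts were fitted in R 4.3.3 with edgeR 4.0.16 (filterByExpr with minimum count 10 and total 15, TMM, robust quasi-likelihood, all 9 libraries, no covariate). The two-sided F test was adjusted by Benjamini-Hochberg over 6227 features, and genes were called under 0.05. All adjusted p-values printed come from it unless another tool is named. On simulated counts for 6169 genes, recovery in the rsm1-labelled comparison with WT was 92.9% for 1.5-fold and 99% for 2-fold changes, with 4.04% of calls false. For nup211-1435 against WT both recoveries were the same and 5.47% of calls were false, above the threshold of 5%. Recovery of changes under 1.5-fold was not tested. Of the 32 subunits, 5 changed at least 1.5-fold in the rsm1-labelled libraries and 0 in nup211-1435, both relative to WT, and none changed 2-fold. Whether these rates hold with 70.7% (rsm1-labelled) or 64.9% (nup211-1435) of all features called, as found here, was not tested.

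The members and lists were chosen with earlier results of these data known. Every member could be named, and full values were given for the 5 largest rises and falls in each comparison (subunits and assembly factors apart), for the highest and lowest member per kilobase of each complex, and for paralogs. Genes named from the lists of the TCA cycle, ubiquinone synthesis, further assembly factors and mitochondrial expression were among those with the largest changes. All genes with counts of the electron transfer, CCAAT and h+ lists were named whatever their change. The list names lsc1, abc1, par1 and rmn1 carry other annotated functions and were left out of the list counts. Of these, lsc1 alone would add 1 rise to the TCA cycle genes in nup211-1435. By contrast the member cox24, annotated as a ribosomal protein, was kept in all counts of assembly factors. The list names inf1, coq2, suv3, pet100 and pet191 had no row, and coa3 had no counts. The labels call the replicates biological. Same-numbered replicates deviated together little (correlations of deviations from the group means -0.06 to 0.12), and the numbers were not used. With WT the correlations lay between -0.06 and 0.02. Between the mutants, replicates 1 (0.119) and 3 (0.107) passed the limit of 0.1 set for this check. Alternatives were scaling (RLE, total counts), no filter, DESeq2 1.42.0, fits of 2 groups, a replicate block and leaving out each library.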

Additional observations from a re-analysis of the deposited data

How the results depend on the processing

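Of the counts of subunits and assembly factors called, those that moved most did so with scaling by total counts. The counts of rises in nup211-1435 relative to WT also moved by more than 1.5 times, or to 0, in other fits given below. Scaling by total counts gave 3 rises and 3 falls of assembly factors in the rsm1-labelled libraries relative to WT. In nup211-1435 relative to WT it gave 7 rises and 6 falls of subunits, and 7 rises and 2 falls of assembly factors. The shares of all features called with this scaling are not given here, so these counts are no result about the genes. Relative to the median of all features, the median of the subunits in the rsm1-labelled libraries stayed at -0.46 with either scaling. That of the subunits in nup211-1435 relative to WT stayed at -0.13. In the fit of 2 groups cox8 was not called in nup211-1435 relative to WT, while atp5 was called higher. With a replicate block 0 subunits rose in nup211-1435 relative to WT, and with DESeq2 or a fit of 2 groups 0 assembly factors rose there. Leaving out each library in turn gave 0 to 2 subunits and 0 to 1 assembly factors that rose in nup211-1435 relative to WT, 15 to 17 subunits that fell there, and 32 subunits that fell in the rsm1-labelled libraries in every such fit. Since the same-numbered replicates deviated together little, the replicate block is a check only. Between the mutants, where the limit was passed, the block left 29 subunits higher and 3 lower in nup211-1435.

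Some values near 0 changed sign, and the cause was not tested beyond the shift of the scaling itself. With scaling by total counts the log2 fold changes relative to WT in nup211-1435 became 0.0098 for atp11, 0.1117 for atp12, 0.1143 for atp16, 0.0291 for atp18, 0.0629 for atp19, 0.1259 for atp4, 0.1337 for cox18, 0.0505 for cox24, 0.1112 for cox4, 0.0422 for cox6, 0.0363 for nde1, 0.0659 for qcr1, 0.0593 for qcr10, 0.1256 for qcr7, 0.0633 for qcr9 and 0.0226 for sdh6. In the rsm1-labelled libraries they became 0.1201 for atp10, 0.0748 for atp12, 0.071 for atp25, 0.0075 for cox17, 0.0314 for cox19, 0.0055 for sdh2 and 0.0189 for sdh6, of which sdh2 and sdh6 had been called lower. Leaving out each library gave ranges across 0 in nup211-1435 relative to WT for atp12 (-0.0673 to 0.0039), atp16 (-0.0486 to 0.0022), atp25 (-0.033 to 0.0532), atp4 (-0.0271 to 0.0125), cox1102 (-0.0143 to 0.2056), cox14 (-0.0307 to 0.0527), cox18 (-0.0739 to 0.0592), cox4 (-0.0533 to 0.0061) and qcr7 (-0.0374 to 0.0279). The same held between the mutants for cox10 (-0.0093 to 0.024), cox1102 (-0.0645 to 0.1342), cox16 (-0.0158 to 0.0555) and sdh6 (-0.0179 to 0.0442), and in the rsm1-labelled libraries relative to WT for atp10 (-0.0937 to 0.0331) and cox1102 (-0.0496 to 0.139). None of these leave-out ranges belongs to a gene called in that comparison. The count of CCAAT motifs and its shorter window were not run.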

Other observations

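In the authors' deposited table for the strain labelled rsm1 deletion against WT, all 32 subunits were lower at an adjusted p under 0.05, and 1 assembly factor was higher and 8 were lower. In the authors' deposited table for nup211-1435 against WT, 9 subunits were lower and none higher, and 7 assembly factors were lower and none higher. The shares of all features called in the authors' tables are not given here. In the fit made here, 34.1% of all features were called lower in the rsm1-labelled libraries and 32% in nup211-1435. Without the authors' shares, the counts from the authors' tables, for either mutant, are no result about the genes. These tables describe the same libraries and are not independent of the fit made here. In the authors' table for the strain labelled rsm1 deletion, 41 features with no count in any of the 9 libraries carry a p-value.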
